A study of Carassius auratus with 9 samples.

Results

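The MA diet was compared with the LA basal diet in the muscle of Hefang crucian carp (Carassius auratus), a diploid farmed strain of crucian carp. The comparison took 6 of the 9 muscle libraries of the series, chosen by their diet labels, with 3 libraries for each diet and a count for each of 76298 goldfish genes in every library. LA fish received a commercial feed with no added amino acid. MA fish received that feed with 1.7% methionine (Met) and 3.4% lysine (Lys) added, and the 3 remaining libraries came from fish on the HA diet, with 3.4% Met and 3.4% Lys. Fish of all 3 diets were kept in indoor tanks, fed for 8 weeks and fasted before sampling. Met and Lys were added together, so the parts of either amino acid cannot be told apart. The 3 libraries of a diet were described as biological replicates but were not tied to fish or tanks, so the p-values measure only the spread between these libraries. The sources used here give no age or sex.

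Fish myotomal muscle is mostly fast (white) fibres, which run on phosphocreatine and glycolysis and are built on fast isoforms of myosin, troponin and tropomyosin, with the calcium buffer parvalbumin in abundance. Slow (red) fibres form a thinner layer with their own isoforms, several of which are also used in the heart. Met starts every new protein and is the source of the methyl donor S-adenosylmethionine, and Lys, the other amino acid that most often limits growth on plant protein, is a building block of muscle protein and of carnitine. The goldfish genome was duplicated in the ancestry of carps, so that most muscle genes are present as several copies. Levels are therefore given both for single gene copies and for families, a family being the summed counts of all genes that carry the same protein name.

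The libraries held 13962770 to 17177610 counts. Levels are CPM, a gene's count scaled to a common library size, after TMM scaling, unless a summed CPM of a gene list is given, which is of the unscaled library total. Fast muscle products were abundant, as the muscle label implies: creatine kinase M lay at 157063 to 159016 CPM in LA and 125889.9 to 157832 CPM in MA, and parvalbumin beta at 99659.8 to 104447 and 84906 to 104841 CPM. Library 3 of each diet stood apart in 1 respect: its counts were close to a mixture of libraries 1 and 2 of the same diet. For LA library 3 the best mixture was 41.3% of library 1 and 58.7% of library 2, and 86.6% of the copies with a mean count of at least 20 lay within the 95% sampling range of that mixture. For MA library 3 it was 55.2% and 44.8%, with 80.5% of copies in range. The highest value among 104 mixtures of other libraries (those with LA library 1 or HA library 2 aside) was 71.9%. Among those set aside, LA library 3 as a mixture of LA library 2 and HA library 2 had 84.0% of copies in range. HA library 3 as a mixture of LA library 1 and HA library 1 had 80.5%. Mixtures across diets thus reached the value of MA library 3. The tests below count the 3 libraries of a diet as independent. If library 3 is not independent of libraries 1 and 2, their SE and p-values are too small. LA library 1 and HA library 2 were also the most alike pair of the series, with 78.3% of copies in sampling range against 63.9% for the next pair, although their diets differ. Call counts and gene list counts below are therefore also given without LA library 1 and HA library 2 and for libraries 1 and 2 of each diet alone, where no family passed in any list. The setting without LA library 1 and HA library 2 keeps library 3 of LA and of MA. The likeness of LA libraries 2 and 3, and of MA library 3 to MA libraries 1 and 2, thus remains in it. Its p-values can be too small as well, and a pass there is no separate support.

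Few genes passed the main test of MA against LA. Of 23946 gene copies tested, 12 rose (0.0501%) and 8 fell (0.0334%) in MA at an adjusted p under 0.05 (edgeR quasi-likelihood test on all 9 libraries), and 16 of these 20 changed by at least 2 on the log2 scale. Of 12187 families, 6 rose (0.0492%) and 3 fell (0.0246%). The copies that rose include a fast myosin heavy chain, a parvalbumin, kyphoscoliosis peptidase and fosB, and those that fell include another fast myosin heavy chain, a class I histocompatibility antigen, caldesmon and a respiratory chain subunit. At an unadjusted p under 0.05, 2751 copies (11.5%) and 1493 families (12.3%) differed. All MA libraries lay above all LA libraries in 1980 copies (8.27%) and 1030 families (8.45%), and below them in 2015 copies (8.41%) and 1031 families (8.46%). Counts of separated families in the gene lists below stand against these shares over all families. The median log2 fold change over all copies was -0.03 and over all families -0.02.

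The number of calls moved with the libraries used. DESeq2 on the same 9 libraries called 440 copies and 286 families. Without LA library 1 and HA library 2, edgeR called 542 of 25074 copies (159 higher, 383 lower) and 442 of 12626 families (115 higher, 327 lower). The 20 copies and 9 families above were all among them. Gene list counts given below for that setting stand against these counts over all families, most of which were lower. With libraries 1 and 2 of each diet alone edgeR called 0 copies and 0 families, with 527 copies and 293 families at an unadjusted p under 0.05. When single libraries were left out, the copies called were 293 without LA library 1, 5 without LA library 2 and 1 without LA library 3. They were 83 without MA library 1, 4 without MA library 2 and 0 without MA library 3 (1861 at an unadjusted p under 0.05). Without HA library 1, 2 or 3 they were 10, 40 and 2. Families called in the same settings were 241, 3 and 0 without an LA library (0 without library 3, with 1025 at an unadjusted p under 0.05), 39, 1 and 1 without an MA library, and 6, 22 and 3 without an HA library. All MA libraries lay on 1 side of all LA libraries in each of the 20 copies and 9 families. Leaving out libraries could thus not reverse their direction, and none reversed in these settings. The plot of called copies and families gives their level in each library.

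**Figure D1:**
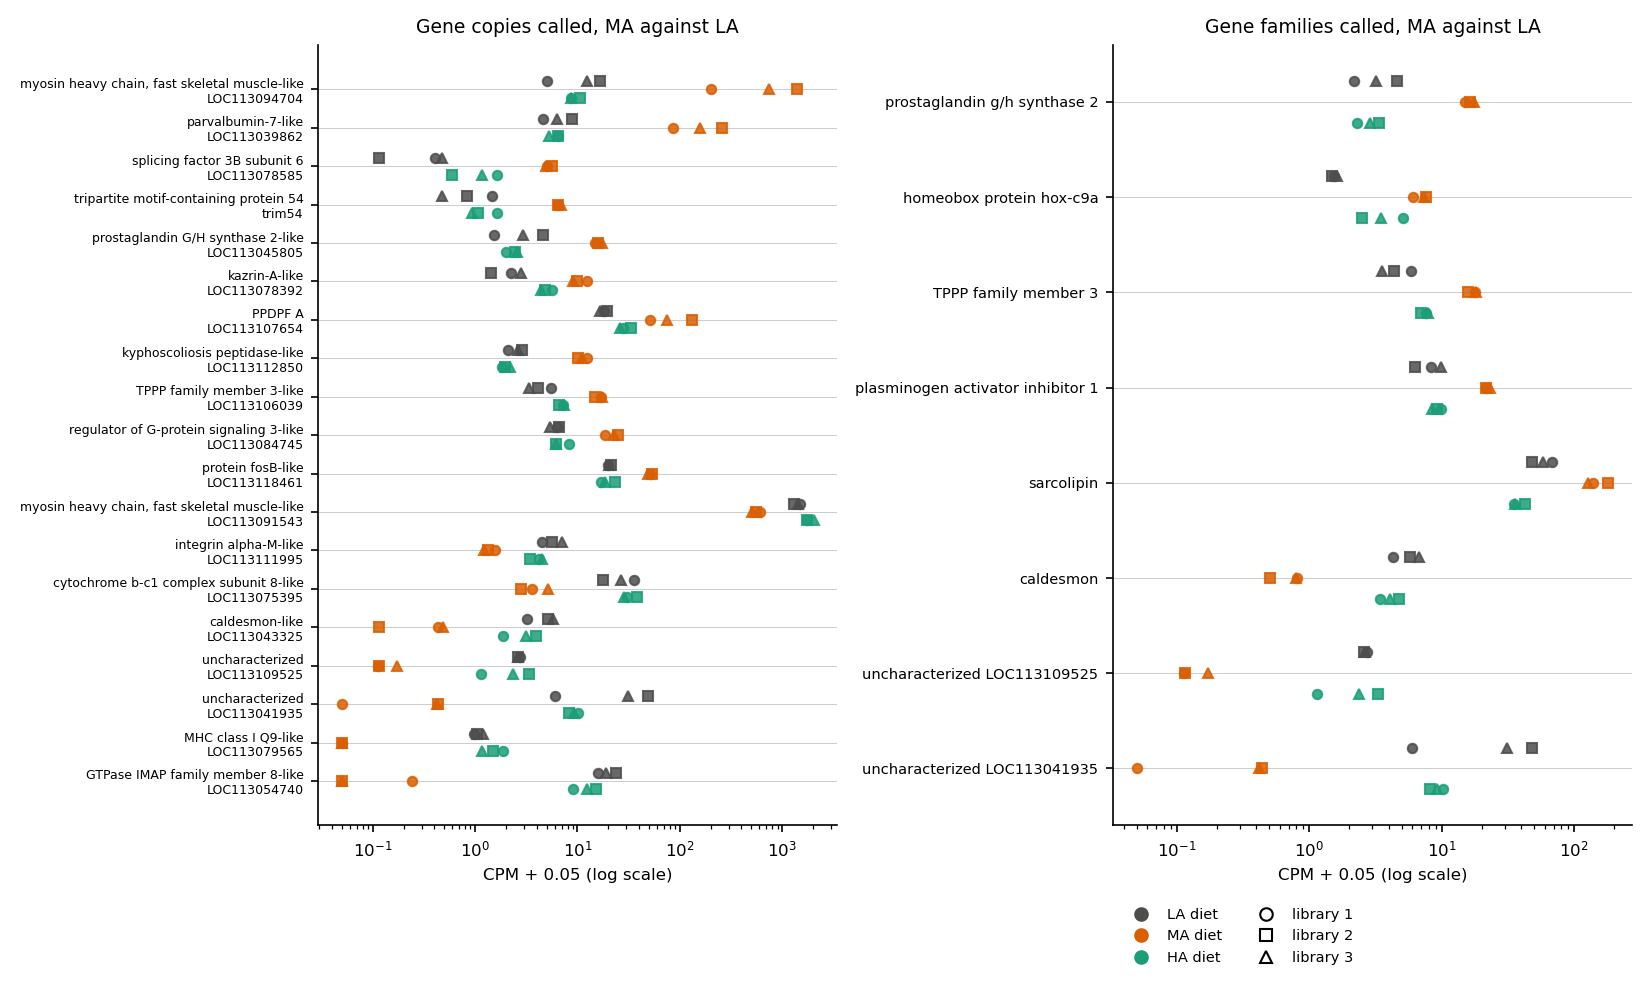
Levels of 19 gene copies (left) and 8 gene families (right) that passed the test of MA against LA, in each library. The horizontal axis is CPM + 0.05 on a log scale, colour gives the diet and marker shape the library number. In every row the 3 MA libraries (orange) lie to 1 side of the 3 LA libraries (grey), as with the fast myosin copy LOC113094704 at 201 to 1382 CPM in MA and 5.03 to 16.7 CPM in LA.

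Copies and families gave different pictures. Of the 20 copies that passed, 17 belong to families with at least 2 tested copies, but the family sum passed for only 3 of those 17 and had the same sign for 13. Conversely 6 of the 9 families that passed held a copy that passed, while plasminogen activator inhibitor 1, homeobox protein Hox-C9a and sarcolipin passed only as sums. The splicing factor 3B subunit 6, a part of the spliceosome, shows the contrast. Its copy LOC113078585 (unplaced scaffold) rose, from 0.354, 0.0656 and 0.429 CPM in LA to 4.97, 5.56 and 4.89 CPM in MA (log2 fold change 4.16, SE 0.53, adjusted p = 0.030), on 12 counts in the 3 LA libraries against 243 in MA. A second copy, LOC113062856 on chromosome 45, read 4.53, 5.38 and 4.22 CPM in the LA libraries and 0.319, 3.49 and 1.67 CPM in the MA libraries (log2 fold change -1.37, SE 0.57, adjusted p = 0.40), and the family sum gave a log2 fold change of 0.22 (SE 0.19, adjusted p = 0.70). Reads of near-identical copies can be placed on either of them, and how the counting treated such reads is not given in the sources used here, so a change of 1 copy is less certain than that of a family sum.

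Among the fast contractile proteins, 3 copies passed: a fast myosin heavy chain copy and a parvalbumin-7 copy rose, and another fast myosin heavy chain copy fell. Fast myosin heavy chain is the motor of fast fibres. Its copy LOC113094704 (chromosome 6, 9432180 to 9442707, minus strand, assembly ASM336829v1) had 5.03, 16.7 and 12.3 CPM in the LA libraries and 201, 1382 and 751 CPM in the MA libraries. Every MA library lay far above every LA library, but the MA libraries themselves ranged over several-fold, with library 2 the highest (log2 fold change 6.10, SE 0.74, adjusted p = 0.025). With libraries 1 and 2 alone the log2 fold change was 6.20 and the copy did not pass. Without LA library 1 and HA library 2 it passed (log2 fold change 5.75, adjusted p = 0.0093). With single libraries left out in turn, it passed in 3 of 9 fits. The second copy, LOC113091543 on an unplaced scaffold, had 1502, 1316 and 1419 CPM in the LA libraries and 612, 549 and 502 CPM in the MA libraries (log2 fold change -1.35, SE 0.17, adjusted p = 0.029), so that its groups were tight and well separated. The HA libraries had 8.64, 10.4 and 8.58 CPM of the first copy and 1763, 1754 and 2027 CPM of the second, on the LA side for both.

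The family as a whole gave no such difference. Its 38 copies, 30 of them tested, summed to 56891, 71918 and 63929 CPM in the LA libraries and 92668, 44158 and 67453 CPM in the MA libraries (log2 fold change 0.08, SE 0.26, adjusted p = 0.93). Of the 30 tested copies, 16 had a positive log2 fold change, and they spread from -2.60 to 6.85. Most of the reads came from LOC113048344 on chromosome 29, which took 54, 73.2 and 66.1% of the family's reads in the LA libraries and 79.8, 27.6 and 64.7% in the MA libraries. Its share thus differed more between MA libraries 1 and 2 than between the diets. The copy that rose took at most 3.14% of the family's reads, in MA library 2. The neighbouring copy LOC113094691 (chromosome 6, 9417936 to 9429112, the same strand) showed the same order of libraries, with 0, 0.985 and 0.786 CPM in the LA libraries and 1.79, 142 and 65.4 CPM in the MA libraries, and did not pass (log2 fold change 6.85, SE 1.45, adjusted p = 0.14). The plot of fast myosin copies sets these values side by side.

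**Figure D2:**
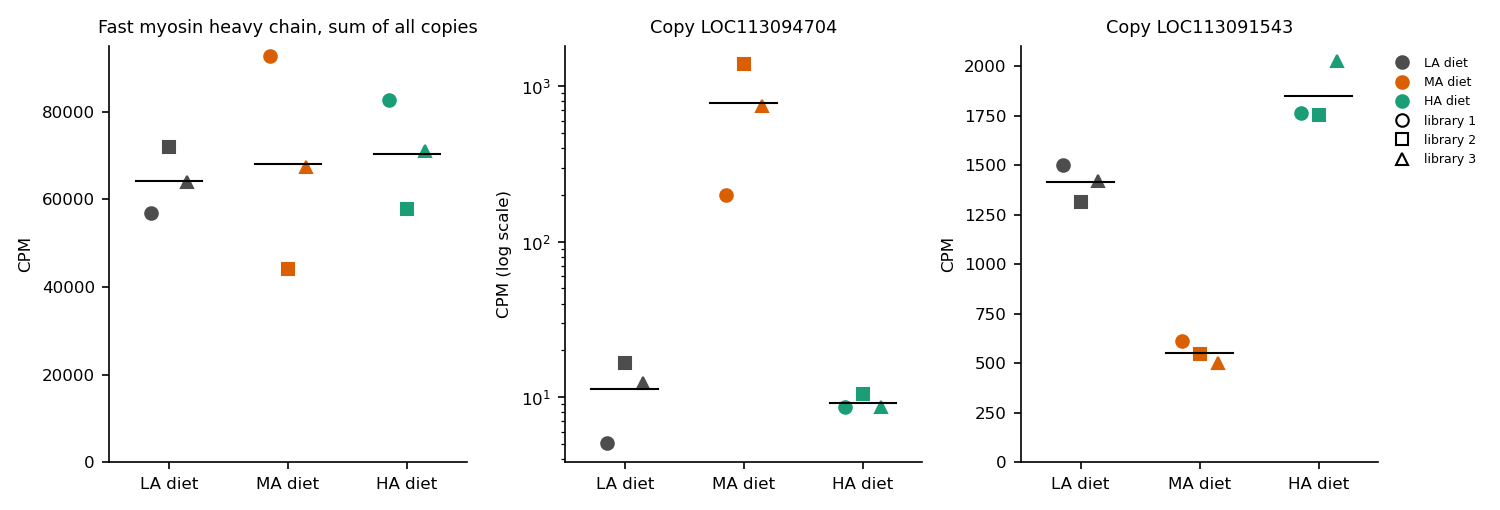
Fast skeletal myosin heavy chain by diet, in CPM: the sum of all copies (left, linear axis from 0), the copy LOC113094704 (middle, log axis) and the copy LOC113091543 (right, linear axis from 0). Each point is a library and each bar the mean of 3 libraries. The sums overlap between the diets, while the middle copy lies above LA and HA in all MA libraries and the right copy, at 502 to 612 CPM in MA, lies below them.

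Parvalbumins bind calcium and speed relaxation of fast fibres. The parvalbumin-7 copy LOC113039862 (chromosome 22, 17602499 to 17631716) rose from 4.53, 8.80 and 6.29 CPM in LA to 85.6, 259 and 159 CPM in MA (log2 fold change 4.68, SE 0.44, adjusted p = 0.011), with all MA libraries above all LA libraries and 6.39, 6.38 and 5.26 CPM in HA. With libraries 1 and 2 alone the log2 fold change of this copy was 4.70 and it did not pass. It passed in 7 of 9 fits with a single library left out. The other tested copy, LOC113065017 on chromosome 47, read 25.1, 22.9 and 26.7 CPM in the LA libraries and 99.7, 771 and 422 CPM in the MA libraries but also 231, 23 and 149 CPM in HA, and it did not pass (log2 fold change 4.11, SE 0.87, adjusted p = 0.14). The parvalbumin-7 sum therefore had a similar fold change but a wider error (log2 fold change 4.25, SE 0.78, adjusted p = 0.11). Parvalbumin beta, the abundant form, differed by less than the spread between libraries (log2 fold change -0.15, SE 0.17, adjusted p = 0.79). Alpha skeletal muscle actin 2, a thin filament actin, lay at 1919, 727 and 1192 CPM in the LA libraries and 527, 389 and 498 CPM in the MA libraries, all MA below all LA, without passing (log2 fold change -1.44, SE 0.39, adjusted p = 0.20). Over the whole fast sarcomere list, 6 of 21 tested families had a positive log2 fold change (median -0.15), with all MA libraries above all LA libraries in 1 and below them in 2, and the summed CPM of 362775 to 391589 in LA and 342751 to 402564 in MA overlapped. The fast sarcomere list without LA library 1 and HA library 2 had 7 of 21 families positive (median -0.13), with 1 higher and 1 lower past the test. Its median was -0.17 with libraries 1 and 2 alone.

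The slow and cardiac sarcomere genes were low in LA and high in 2 of the 3 MA libraries. All 7 tested families of this list had a positive log2 fold change, with a median of 5.36 against -0.02 over all families, yet none passed the test (smallest adjusted p = 0.13), and only 2 of the 7 had all MA libraries above all LA libraries. Myosin-7, the slow and cardiac myosin heavy chain, read 0.637, 0.851 and 1.00 CPM in the LA libraries and 2.17, 143 and 77.2 CPM in the MA libraries (log2 fold change 6.47, SE 1.27, adjusted p = 0.13). Troponin C of slow and cardiac muscle, the calcium sensor of the thin filament, read 0.849, 0.786 and 0.858 CPM in the LA libraries and 0.765, 66.8 and 36.1 CPM in the MA libraries (log2 fold change 5.36, SE 1.25, adjusted p = 0.16). In both, MA library 1 stood at or near the LA level, MA library 2 was highest and MA library 3 lay between. The counts of MA library 3 were close to a mixture of 55.2% of MA library 1 and 44.8% of MA library 2. Its middle level is therefore no separate support beside MA library 2. The summed CPM of the list was 9.09, 12.8 and 13.9 in LA, 12.5, 567 and 267 in MA and 24.5, 5.95 and 16.2 in HA. Tropomyosin alpha-3, a slow fibre tropomyosin, was at 6.51, 9.03 and 9.73 CPM in the LA libraries and 8.54, 37.7 and 22 CPM in the MA libraries. Heat shock protein beta-7, a small chaperone best known from heart and listed with the upkeep genes, followed the same order of libraries with 0.425, 0.0655 and 0.501 CPM in the LA libraries and 0.574, 9.66 and 5.51 CPM in the MA libraries (log2 fold change 3.98, SE 0.93, adjusted p = 0.16). Of the other muscle genes, parvalbumin-7 and the fast myosin copy on chromosome 6 were also highest in MA library 2, but unlike the slow genes they stood well above LA in MA library 1 too. In bulk muscle, more slow fibre in a sample and more RNA per slow fibre cannot be told apart. The slow and cardiac sarcomere list had a median of 5.35 with libraries 1 and 2 alone. Without LA library 1 and HA library 2 it had 15 of 15 families positive (median 5.72), with 0 higher and 0 lower past the test. Genes were filtered anew in that fit, where sufficient counts in 2 libraries were enough, so 15 families were tested in place of 7. Families could enter through MA libraries 2 and 3 alone, so their shared sign is no separate support. The fit of all libraries asked for sufficient counts in 3 libraries, so families low in LA could enter it through MA and HA libraries. The shared sign and median of the 7 families are thus no separate support either. The plot of slow sarcomere families gives each library.

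**Figure D3:**
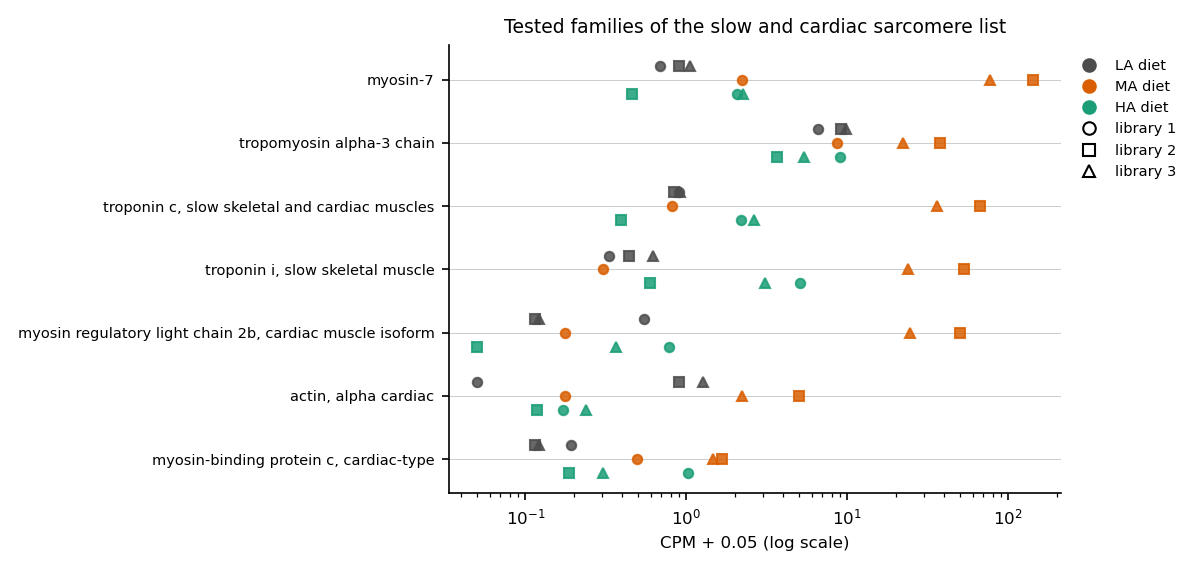
The 7 tested families of the slow and cardiac sarcomere list in each library, as CPM + 0.05 on a log axis, with colour for the diet and shape for the library number. MA libraries 2 and 3 lie to the right of all LA libraries in every family, and MA library 1 lies at or near the LA points (2.17 CPM of myosin-7 against 143 and 77.2 CPM).

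Genes of Z-disc and sarcomere upkeep rose in 2 single copies, and neither family sum passed. Kyphoscoliosis peptidase, a muscle protein needed for muscle growth and stability in mammals, rose in its copy LOC113112850 (chromosome 13, 16158565 to 16164254), from 2.05, 2.82 and 2.57 to 12.3, 10.1 and 11.1 CPM (log2 fold change 2.17, SE 0.22, adjusted p = 0.013). That copy took 4.89, 5.55 and 5.75% of the family's reads in LA and 21.9, 19 and 19.2% in MA. The family sum had all MA libraries above all LA libraries, with a small log2 fold change of 0.28 (SE 0.13, adjusted p = 0.42). Trim54 (MuRF3), a ubiquitin ligase of the Z-disc and microtubules, also rose in a single copy. The copy named trim54 (chromosome 20, 44655 to 59062) rose from 1.42, 0.788 and 0.429 to 6.38, 6.40 and 6.86 CPM (log2 fold change 2.89, SE 0.40, adjusted p = 0.038). It held no more than 6.22% of the family's reads, and the family sum overlapped between the diets (log2 fold change -0.03).

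No family of the upkeep list passed. In this list, 23 of 49 tested families had a positive log2 fold change (median -0.01), with all MA libraries above all LA libraries in 8 and below them in 6 (8.45% and 8.46% of all families). The upkeep list without LA library 1 and HA library 2 had 32 of 49 families positive (median 0.11), with 0 higher and 1 lower past the test. Its median was -0.06 with libraries 1 and 2 alone. Titin, the giant spring of the sarcomere, was at 39450.0, 40394 and 38919 CPM in the LA libraries and 34319, 33874 and 34713 CPM in the MA libraries, all MA below all LA (log2 fold change -0.21, SE 0.15, adjusted p = 0.63), and the Z-disc proteins alpha-actinin-3 and myozenin-1 overlapped between the diets. Ankyrin repeat domain-containing protein 1, a stretch-responsive protein of the titin filament, read 3.18, 18.6 and 14.3 CPM in the LA libraries and 0.637, 2.72 and 1.98 CPM in the MA libraries (log2 fold change -2.75, SE 0.65, adjusted p = 0.16). Its LA level ranged widely, with library 1 the lowest, and without LA library 1 and HA library 2 it passed (log2 fold change -3.20, adjusted p = 0.0044). That setting leaves out the LA library nearest to the MA level. The removal thus favoured a lower call, and this pass is no separate support.

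Of the calcium handling families, sarcolipin passed. Sarcolipin is a small membrane protein that inhibits the calcium pump of the sarcoplasmic reticulum, uncouples ATP use from calcium transport and so produces heat in mammalian muscle. Its family had 68, 48 and 57.6 CPM in the LA libraries and 139.7, 181 and 127 CPM in the MA libraries, against 35.2, 42.7 and 35.4 CPM in HA, so MA lay above both other diets (log2 fold change 1.37, SE 0.19, adjusted p = 0.043). Its 3 copies did not follow 1 order: LOC113058843 (chromosome 40) had 2.27, 2.82 and 1.72 CPM in LA and 79.1, 10.7 and 38.5 CPM in MA, highest in library 1 (adjusted p = 0.052), while LOC113114685 (chromosome 15) had 30.5, 45.2 and 42.1 and 53.7, 163 and 82.4 CPM, highest in library 2 (adjusted p = 0.24). The third copy, LOC113058838 (chromosome 40), had 35.3, 0.131 and 13.8 CPM in LA and 6.89, 7.11 and 6.31 CPM in MA (log2 fold change -1.28, adjusted p = 0.76), 27.8% of the family's reads in LA and 4.54% in MA. The pump itself, the calcium ATPase 1, lay at 19958 to 24100.1 CPM in LA and 19935 to 22375 CPM in MA. The ryanodine receptor 1, the release channel, read 3469, 3610.1 and 3409 CPM in the LA libraries and 2652, 2784 and 2599.7 CPM in the MA libraries (log2 fold change -0.38, SE 0.13, adjusted p = 0.27), and sarcalumenin, a calcium buffer of the reticulum, 1298, 1135 and 1163 CPM in the LA libraries and 848, 852 and 853 CPM in the MA libraries (log2 fold change -0.49, SE 0.13, adjusted p = 0.20), both with all MA below all LA and neither passing. The summed CPM of the list lay at 44911 to 47281 in LA and 42778 to 44909 in MA. These ranges all but touched and are of unscaled library totals, so their separation may depend on the scaling. In the list, 8 of 22 tested families had a positive log2 fold change (median -0.08). All MA libraries lay above all LA libraries in 1 family and below them in 6 (8.45% and 8.46% of all families). The calcium handling list without LA library 1 and HA library 2 had 7 of 22 families positive (median -0.10), with 1 higher and 0 lower past the test. Its median was -0.13 with libraries 1 and 2 alone.

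Energy metabolism gave 1 call, in a single copy. No family of glycolysis and phosphagen use passed, although the summed CPM of the list lay at 197616 to 200775 in LA and 208888 to 215006 in MA without overlap. Glyceraldehyde-3-phosphate dehydrogenase, a glycolytic enzyme, had the smallest p of the list, with 10202, 12441 and 11524 CPM in the LA libraries and 23862, 20646 and 20957 CPM in the MA libraries (log2 fold change 0.94, SE 0.21, adjusted p = 0.15). HA library 1, at 18108 CPM, lay near the MA level, and without LA library 1 and HA library 2 the family passed (log2 fold change 0.86, adjusted p = 0.015). Muscle glycogen phosphorylase, which releases glucose from glycogen, read 2749, 1499 and 1906 CPM in the LA libraries and 4195, 2710.0 and 3834 CPM in the MA libraries (log2 fold change 0.80, SE 0.25, adjusted p = 0.24). By family, 22 of 45 were positive, so the gap in the sum was not shared over the list. The glycolysis and phosphagen list without LA library 1 and HA library 2 had 26 of 45 families positive (median 0.23), with 2 higher and 0 lower past the test. Its median was 0.03 with libraries 1 and 2 alone.

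In oxidative phosphorylation, 53 of 89 tested families had a positive log2 fold change (median 0.06), with all MA libraries above all LA libraries in 10 and below them in 1, and no family passed. Cytochrome b-c1 complex subunit 8, a part of respiratory complex III, fell in its copy LOC113075395 (unplaced scaffold), which read 35.8, 17.6 and 26.5 CPM in the LA libraries and 3.51, 2.78 and 5.07 CPM in the MA libraries (log2 fold change -2.81, SE 0.32, adjusted p = 0.018) and 30.1, 38.1 and 28.6 CPM in HA. A second copy, LOC113081211, read 23.7, 28.2 and 22.9 CPM in the LA libraries and 51.6, 52.1 and 47.9 CPM in the MA libraries (log2 fold change 1.02, SE 0.24, adjusted p = 0.17), so the copies lay on opposite sides of 0 and the family sum gave a log2 fold change of 0.12 (adjusted p = 0.81). Only the fall of the first copy passed. The cytochrome b560 subunit of succinate dehydrogenase read 31.1, 29.6 and 27.5 CPM in the LA libraries and 57.4, 38.4 and 51.6 CPM in the MA libraries (log2 fold change 0.74, SE 0.18, adjusted p = 0.16). The oxidative phosphorylation list without LA library 1 and HA library 2 had 69 of 89 families positive (median 0.16), with 0 higher and 0 lower past the test. Its median was 0.05 with libraries 1 and 2 alone.

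**Figure D4:**
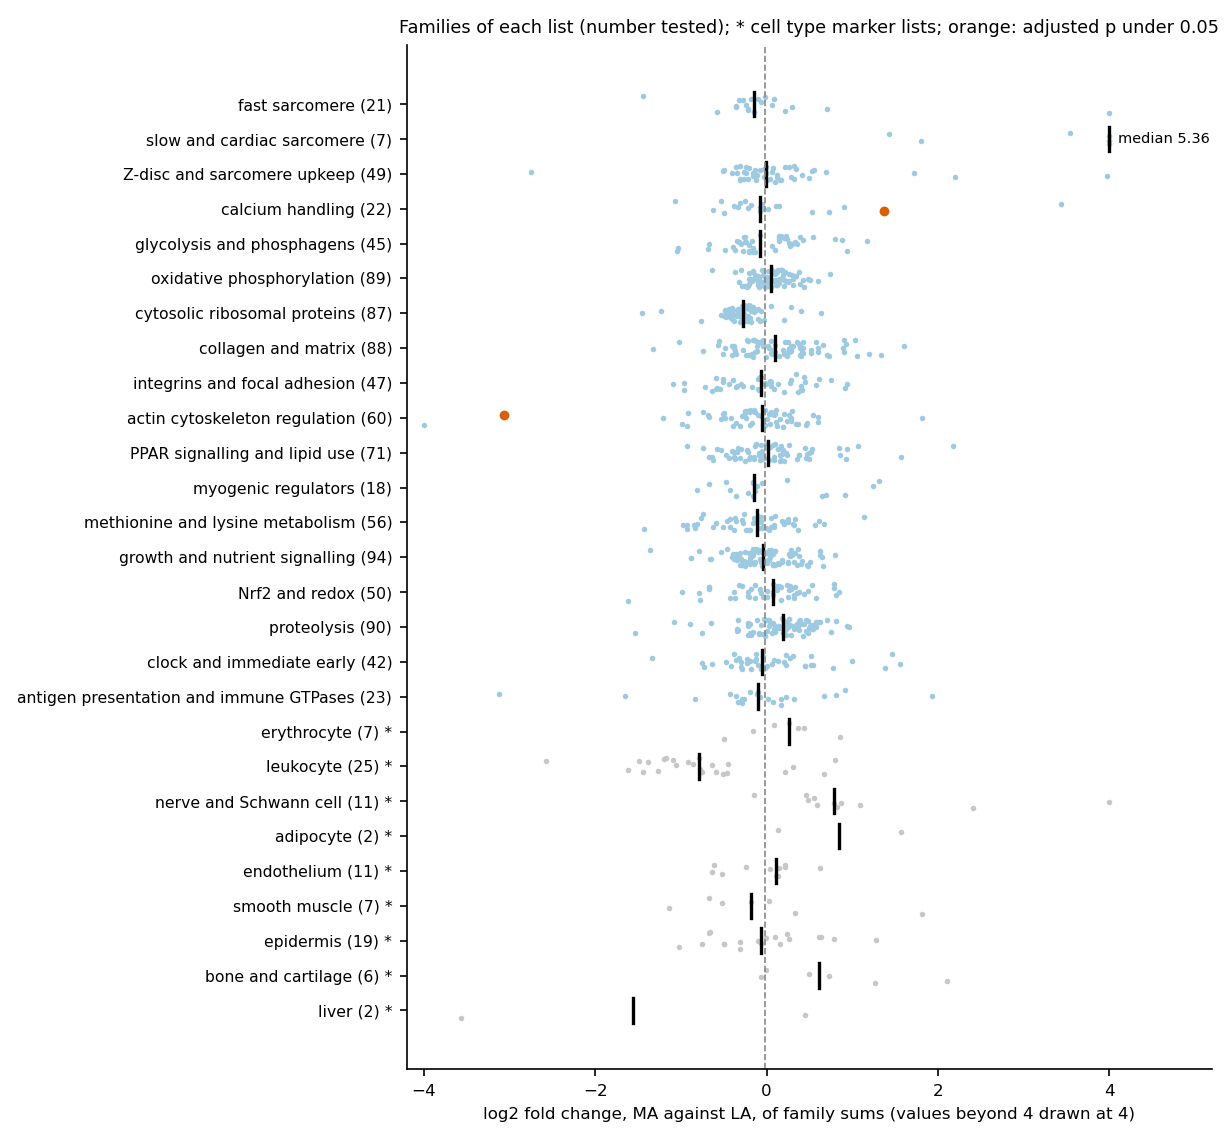
Log2 fold changes of MA against LA for the families of each gene list, with the number tested in brackets. Each point is a family, orange points passed the test, black bars are medians, an asterisk and grey points mark cell type marker lists, and values beyond 4 are drawn at 4. Medians lie near 0 in most lists, at -0.27 for cytosolic ribosomal proteins, 0.19 for proteolysis and 5.36 for the slow and cardiac sarcomere. Slow and cardiac families low in LA could pass the filter on low counts through other libraries, so their median is no separate support.

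Actin regulators and adhesion proteins fell in 1 family and 2 copies. Caldesmon binds actin and tropomyosin and restrains myosin in smooth muscle and non-muscle cells. Its family had 4.25, 5.70 and 6.72 CPM in the LA libraries and 0.765, 0.454 and 0.743 CPM in the MA libraries (log2 fold change -3.07, SE 0.30, adjusted p = 0.0096), with 3.35, 4.71 and 4.03 CPM in HA, and both of its copies had a negative log2 fold change. The copy LOC113043325 (chromosome 25, 11723917 to 11755138) fell from 3.19, 5.05 and 5.72 to 0.383, 0.0647 and 0.433 CPM (log2 fold change -3.94, SE 0.53, adjusted p = 0.038). Integrin alpha-M, which pairs with integrin beta-2 on macrophages and granulocytes, fell in its copy LOC113111995 (chromosome 12, 16945883 to 16983641), from 4.46, 5.58 and 7.08 to 1.53, 1.29 and 1.18 CPM (log2 fold change -2.09, SE 0.27, adjusted p = 0.029), and the family sum gave a log2 fold change of -1.09 (adjusted p = 0.17). Cytoplasmic actin 1 (beta-actin), the reference gene of the study's qPCR, was at 1083, 1148 and 1074 CPM in the LA libraries and 625, 727 and 704 CPM in the MA libraries as the sum of 4 copies, all MA below all LA (log2 fold change -0.68, SE 0.18, adjusted p = 0.18). The copy matched to the primers, LOC113092685, read 86.4, 62.7 and 73.5 CPM in LA and 43.6, 61.8 and 51.6 CPM in MA (log2 fold change -0.50, SE 0.29, adjusted p = 0.57). The paper reports that beta-actin Ct values varied little among the diets. Talin-1, which ties integrins to actin, was at 23.7, 23.6 and 23.9 CPM in the LA libraries and 15.7, 17.8 and 13.9 CPM in the MA libraries (log2 fold change -0.59, SE 0.14, adjusted p = 0.16).

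By list, the actin regulators had 26 of 60 families positive, 4 with all MA above and 8 with all MA below LA, and 1 that passed (caldesmon). Without LA library 1 and HA library 2, 7 of 60 actin regulator families and 3 of 47 integrin and focal adhesion families passed, all of them lower in MA. Over all families in that setting, 442 of 12626 passed, and 327 of these were lower. The median of the actin regulators was -0.05 with all libraries, -0.03 without LA library 1 and HA library 2 and -0.13 with libraries 1 and 2 alone. None of the 88 collagen and matrix families passed, 51 were positive (median 0.10), 15 had all MA above all LA (8.45% of all families did) and 7 all MA below (8.46% of all families did). The collagen and matrix list without LA library 1 and HA library 2 had 46 of 89 families positive (median 0.01), with 3 higher and 3 lower past the test. Its median was 0.13 with libraries 1 and 2 alone. Collagen alpha-1(I), the main fibrillar collagen, overlapped at 914, 1743 and 1351 CPM in the LA libraries and 1352, 1745 and 1576 CPM in the MA libraries. Serpin H1, the collagen chaperone HSP47, read 7.64, 9.62 and 9.73 CPM in the LA libraries and 14.3, 21.6 and 15.4 CPM in the MA libraries (log2 fold change 0.92, SE 0.20, adjusted p = 0.15). The summed matrix level overlapped between the diets, with LA library 1 lowest at 3554 CPM and MA library 2 highest at 6838 CPM.

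No family of protein synthesis or breakdown passed, but most ribosomal protein families had a negative fold change and most proteolysis families a positive one. Of the cytosolic ribosomal proteins, 5 of 87 tested families had a positive log2 fold change (median -0.27), with all MA libraries above all LA libraries in 0 and below them in 10 (8.45% and 8.46% of all families). This list was built by name and also holds a few ribosomal protein S6 kinases. The large subunit protein L3 read 2872, 2232 and 2378 CPM in the LA libraries and 1843, 2141 and 1839 CPM in the MA libraries (log2 fold change -0.36, SE 0.19, adjusted p = 0.49). The summed CPM of the list was 64296, 49536 and 56091 in LA and 44381, 59881 and 47668 in MA, so MA library 2 lay inside the LA range. In the proteolysis list, 63 of 90 tested families had a positive log2 fold change (median 0.19), with all MA libraries above all LA libraries in 19 and below them in 3, while 8.45% of all families had all MA above all LA. Their summed CPM was 2475 to 2615 in LA and 3126 to 3199 in MA, without overlap, and 2892 to 3324 in HA. PSMD10 (gankyrin), an assembly chaperone of the proteasome, was at 3.75, 4.52 and 3.15 CPM in the LA libraries and 7.39, 8.43 and 6.38 CPM in the MA libraries (log2 fold change 0.96, SE 0.21, adjusted p = 0.14), and BNIP3, a mitophagy receptor, at 107, 127 and 117 CPM in the LA libraries and 176, 159 and 171 CPM in the MA libraries (log2 fold change 0.53, SE 0.15, adjusted p = 0.22). The ribosomal protein list without LA library 1 and HA library 2 had 13 of 88 families positive (median -0.12), with 0 higher and 0 lower past the test. Its median was -0.24 with libraries 1 and 2 alone. The proteolysis list without LA library 1 and HA library 2 had 60 of 90 families positive (median 0.28), with 4 higher and 1 lower past the test. Its median was 0.21 with libraries 1 and 2 alone.

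Genes of Met and Lys metabolism, the pathways of the added amino acids, did not pass either. In this list, 20 of 56 tested families had a positive log2 fold change (median -0.11), with all MA libraries above all LA libraries in 1 and below them in 10 (8.45% and 8.46% of all families). The lowest adjusted p belonged to ornithine decarboxylase antizyme 1, which restrains polyamine synthesis, at 76.7, 79.7 and 74.7 CPM in the LA libraries and 43.7, 41.9 and 44.2 CPM in the MA libraries (log2 fold change -0.83, SE 0.14, adjusted p = 0.087). Its groups were tight and did not overlap, and it passed without LA library 1 and HA library 2 (log2 fold change -0.83, adjusted p = 0.012). Adenosylhomocysteinase B, which clears the product of methyl transfer, was at 83.5, 83.9 and 79.4 CPM in the LA libraries and 61.7, 35.8 and 47.3 CPM in the MA libraries (log2 fold change -0.77, SE 0.20, adjusted p = 0.18). In growth and nutrient signalling, 43 of 94 tested families had a positive log2 fold change (median -0.04), with all MA libraries above all LA libraries in 7 and below them in 8, and ATF4, FOXO3 and sestrin-1, the families of highest CPM, all overlapped between the diets. C/EBP beta, a transcription factor of stress and fat cell programmes, was at 53.1, 86.5 and 74.4 CPM in the LA libraries and 17.7, 38.4 and 27.1 CPM in the MA libraries (log2 fold change -1.36, SE 0.29, adjusted p = 0.14), and sestrin-3, a brake on mTORC1, at 13, 17.2 and 14.9 CPM in the LA libraries and 22.8, 29.3 and 26.4 CPM in the MA libraries (log2 fold change 0.80, SE 0.22, adjusted p = 0.21). The Met and Lys metabolism list without LA library 1 and HA library 2 had 21 of 57 families positive (median -0.07), with 1 higher and 2 lower past the test. Its median was -0.13 with libraries 1 and 2 alone. The growth and nutrient signalling list without LA library 1 and HA library 2 had 49 of 94 families positive (median 0.00), with 0 higher and 1 lower past the test. Its median was -0.05 with libraries 1 and 2 alone.

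None of the 15 genes on the study's qPCR primer list passed as a family. By single copy, the copy matched to the MyHC primers is LOC113094704, the fast myosin copy that rose, and none of the other matched copies passed. By qPCR, however, the paper reports no significant difference among the diets in MyHC, MYF5 or Keap1. It reports significant differences among the diets in Nrf2, GPX1a, GSTO1, GSTP1, MyoD, MyoG and MRF4. For ACSL1, LPL, PPAR alpha, ADSL, MyoD and MyoG it describes like trends in qPCR and RNA-seq. Myogenin, the factor of myoblast differentiation, read 25.4, 16.6 and 21.2 CPM in LA and 81.5, 16.5 and 51 CPM in MA (log2 fold change 1.24, SE 0.51, adjusted p = 0.37), and MyoD 29.6, 15.8 and 19.5 CPM in LA and 28.7, 35.5 and 37.5 CPM in MA (log2 fold change 0.65, SE 0.26, adjusted p = 0.35). Lipoprotein lipase, which frees fatty acids from blood lipid, read 17.3, 23.6 and 23.9 CPM in LA and 41.9, 38.9 and 43.3 CPM in MA, with all MA above all LA (log2 fold change 0.94, SE 0.28, adjusted p = 0.23). Nrf2, the regulator of antioxidant genes, read 13.2, 9.75 and 12.3 CPM in LA and 10.7, 17 and 15 CPM in MA (log2 fold change 0.27, SE 0.20, adjusted p = 0.65). Its inhibitor Keap1 gave a log2 fold change of 0.07, glutathione peroxidase 1a -0.52, GSTO1 -0.04 and GSTP1 0.23. MRF4 and MYF5 had -0.16 and -0.67, ADSL -0.21, ACSL1 0.16 and PPAR alpha -0.30. No sign was shared across the antioxidant genes or the myogenic factors.

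No family of the wider lists passed either. In the myogenic list, 6 of 18 tested families had a positive log2 fold change (median -0.15), with all MA libraries above all LA libraries in 3 and below them in 4. Myostatin (growth/differentiation factor 8), which limits muscle growth, was at 22.1, 19.1 and 20.5 CPM in the LA libraries and 24.7, 72.4 and 55.8 CPM in the MA libraries, all MA above all LA (log2 fold change 1.31, SE 0.31, adjusted p = 0.16), while HA lay at 45.4, 43.2 and 49.3 CPM. In the Nrf2 and redox list, 28 of 50 tested families had a positive log2 fold change (median 0.07), with all MA libraries above all LA libraries in 3 and below them in 2, and of the PPAR and lipid families 36 of 71 were positive, with a median of 0.01. Adiponectin, a hormone made by fat cells, was at 9.48, 2.23 and 5.58 CPM in the LA libraries and 13.8, 19.6 and 17.7 CPM in the MA libraries (log2 fold change 1.57, SE 0.40, adjusted p = 0.17), with LA library 2 the lowest and all MA libraries above LA. The myogenic list without LA library 1 and HA library 2 had 8 of 18 families positive (median -0.09), with 1 higher and 0 lower past the test. Its median was -0.18 with libraries 1 and 2 alone. The Nrf2 and redox list without LA library 1 and HA library 2 had 31 of 51 families positive (median 0.10), with 0 higher and 1 lower past the test. Its median was 0.09 with libraries 1 and 2 alone. The PPAR and lipid list without LA library 1 and HA library 2 had 42 of 73 families positive (median 0.08), with 4 higher and 0 lower past the test. Its median was -0.01 with libraries 1 and 2 alone.

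Several signalling and early response genes rose. FosB, a partner in the AP-1 transcription factor, rose in its copy LOC113118461 (chromosome 18, 11844939 to 11852348), from 20.05, 21 and 20.4 to 51.6, 53.5 and 49.1 CPM (log2 fold change 1.33, SE 0.18, adjusted p = 0.038). The MA libraries were the only ones near that level, since HA had 16.9, 23.1 and 18.6 CPM. Prostaglandin G/H synthase 2 (COX-2), the inducible enzyme of prostaglandin synthesis, rose as a family, from 2.12, 4.58 and 3.15 to 15, 16.3 and 17.6 CPM (log2 fold change 2.30, SE 0.27, adjusted p = 0.019), and in its copy LOC113045805 (chromosome 27, 20252747 to 20256080), which held most of its reads. Plasminogen activator inhibitor 1, which blocks the proteases that dissolve fibrin, rose as a family, from 8.21, 6.22 and 9.87 to 21.5, 21.4 and 23.2 CPM (log2 fold change 1.45, SE 0.18, adjusted p = 0.027). Regulator of G-protein signalling 3, which shortens signalling by G-protein coupled receptors, rose in its copy LOC113084745 (chromosome 5, 29378019 to 29440004), from 6.30, 6.498 and 5.29 to 18.6, 25.1 and 22.9 CPM (log2 fold change 1.88, SE 0.21, adjusted p = 0.018).

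The counts of the clock and immediate early list depended on the libraries used. With all libraries, 19 of 42 tested families had a positive log2 fold change (median -0.05), with all MA libraries above all LA libraries in 9 and below them in 2 (8.45% and 8.46% of all families), and no family passed. The clock and immediate early list without LA library 1 and HA library 2 had 33 of 42 families positive (median 0.35), with 4 higher and 0 lower past the test. Its median was -0.09 with libraries 1 and 2 alone. The families of highest CPM were not ordered by diet: the nuclear receptor NR4A1 read 2709.8, 362 and 1257 CPM in the LA libraries and 1544, 1325 and 1421 CPM in the MA libraries, and c-Jun (transcription factor AP-1) 807, 194 and 422 CPM in the LA libraries and 509, 365 and 436 CPM in the MA libraries. In both, LA libraries 1 and 2 marked the ends of the range of all 6 libraries. NR4A2, by contrast, was at 5.10, 5.24 and 5.15 CPM in the LA libraries and 17.5, 13.3 and 12.1 CPM in the MA libraries (log2 fold change 1.47, SE 0.28, adjusted p = 0.13), with tight LA values.

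The remaining features that rose encode cytoskeletal proteins, a homeobox factor and a factor named for the pancreas. Tubulin polymerization-promoting protein family member 3, which bundles microtubules, rose as a family, from 5.80, 4.32 and 3.504 to 17.8, 15.8 and 18.2 CPM (log2 fold change 1.93, SE 0.20, adjusted p = 0.011), nearly all of it through LOC113106039 (chromosome 7, 14652469 to 14658866). Kazrin-A, a protein linked to cell junctions and the cytoskeleton, rose in the copy LOC113078392 (unplaced scaffold), from 2.20, 1.38 and 2.79 to 12.4, 9.83 and 9.03 CPM (log2 fold change 2.30, SE 0.28, adjusted p = 0.027), and its family lay at a log2 fold change of 1.11 (adjusted p = 0.072). Pancreatic progenitor cell differentiation and proliferation factor A rose in the copy LOC113107654 (chromosome 8, 22231398 to 22233676), from 18, 19.6 and 16.6 to 51.3, 132 and 75.2 CPM (log2 fold change 2.26, SE 0.32, adjusted p = 0.047), while the family sum gave a log2 fold change of 0.14. Hox-C9a, a patterning factor of the posterior body, rose as a family, from 1.49, 1.44 and 1.57 to 5.99, 7.52 and 7.25 CPM (log2 fold change 2.20, SE 0.28, adjusted p = 0.027), with 5.05, 2.46 and 3.46 CPM in HA.

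The largest falls were of immune gene copies and of copies without a named product. GTPase IMAP family member 8, of a GTPase family expressed in lymphocytes, fell to near 0 in its copy LOC113054740 (chromosome 3, 14128047 to 14190658), with 15.8, 23.6 and 18.8 CPM in the LA libraries and 0.191, 0 and 0 CPM in the MA libraries and 9.01, 15.2 and 12.3 CPM in HA. These are 845 counts in LA against 3 in MA, a ratio of 287 per total count with a 95% counting interval of 97.9 to 1395 (adjusted p = 0.0040). The family, with 64 copies and 10 of them tested, gave a log2 fold change of -0.28. A class I histocompatibility copy, LOC113079565 (unplaced scaffold), which presents peptides to T cells, had 44 counts in LA and 0 in MA and was at least 14.9-fold lower per total count, the bound taking 3 counts over the MA group (adjusted p = 0.038). The sum of the 4 copies of this class I family gave a log2 fold change of 1.94 (SE 0.87, adjusted p = 0.41), opposite in sign. Another copy of that family, LOC113102785, had 0, 0 and 0 CPM in LA and 15.7, 0 and 10.4 CPM in MA. Such intervals cover counting error only.

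Uncharacterized LOC113109525 (chromosome 10, 1963535 to 1971448) fell from 2.69, 2.56 and 2.57 to 0.0638, 0.0647 and 0.124 CPM, which is 113 counts in LA against 4 in MA (adjusted p = 0.018). Uncharacterized LOC113041935 (chromosome 24, 921007 to 928076) fell from 5.95, 48.4 and 31.3 to 0, 0.388 and 0.371 CPM, with 1260 counts against 12 (adjusted p = 0.038), although its LA libraries differed several-fold among themselves. In the antigen presentation and immune GTPase list, 10 of 23 tested families had a positive log2 fold change (median -0.10), with all MA libraries above all LA libraries in 0 and below them in 1, and no family passed. Beta-2-microglobulin, the shared light chain of class I molecules, overlapped at 279.9, 376 and 300.5 CPM in the LA libraries and 429, 138 and 318 CPM in the MA libraries. The antigen presentation and immune GTPase list without LA library 1 and HA library 2 had 4 of 23 families positive (median -0.20), with 0 higher and 0 lower past the test. Its median was -0.15 with libraries 1 and 2 alone. Both immune calls were thus of single copies, with family sums that did not pass, and the class I sum had the opposite sign.

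Marker sums of some other cell types also differed between the diets. Nerve and Schwann cell markers were higher in MA: 10 of 11 tested families were positive, 9 of 11 had all MA above all LA (8.45% of all families did) and the median was 0.78, while none passed (smallest adjusted p = 0.10). Contactin-1, with 3 counts in LA and 79 in MA, could not have passed the filter on low counts through LA libraries. It could thus not have been counted as below LA. Markers of 1 cell type can also vary together, so their count beside the share of all families is no test. The summed CPM of the list was 265 to 282 in LA, 401 to 655 in MA and 319 to 337 in HA, with MA library 2 the highest. Myelin protein P0, the main protein of peripheral myelin, was at 89.7, 65.5 and 73.7 CPM in the LA libraries and 128, 202 and 159 CPM in the MA libraries (log2 fold change 1.10, SE 0.20, adjusted p = 0.10), and myelin basic protein at 70.6, 49.2 and 55.1 CPM in the LA libraries and 100.1, 119.9 and 101 CPM in the MA libraries (log2 fold change 0.87, SE 0.17, adjusted p = 0.13). The 4 untested families of the list, contactin-2 and 3 SNAP25 genes, stayed under 1 CPM in every LA and MA library. The slow sarcomere sum was high in the same MA libraries 2 and 3, but not in MA library 1, where the nerve sum also exceeded LA. The nerve and Schwann cell list without LA library 1 and HA library 2 had 11 of 11 families positive (median 0.94), with 2 higher and 0 lower past the test. Its median was 0.57 with libraries 1 and 2 alone.

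Leukocyte markers were lower in MA than in LA libraries 2 and 3, but not than in LA library 1. Their summed CPM was 121, 441 and 323 in LA and 137, 177 and 159.8 in MA, with 4 of 25 tested families positive, 0 with all MA above and 4 with all MA below LA (8.46% of all families were below), and a median of -0.79. Plastin-2, an actin bundler of white blood cells, was at 27.6, 57 and 49.7 CPM in the LA libraries and 21.2, 19.6 and 18.5 CPM in the MA libraries (log2 fold change -1.18, SE 0.24, adjusted p = 0.13), and coronin-1A, another leukocyte actin protein, at 20.03, 81.9 and 57.7 CPM in the LA libraries and 22.5, 17.3 and 19 CPM in the MA libraries (log2 fold change -1.44, SE 0.39, adjusted p = 0.21). Without LA library 1 and HA library 2, 327 of all 12626 tested families passed as lower in MA. Of the 26 leukocyte families tested there, 12 passed, all lower in MA. That setting leaves out the LA library with the lowest leukocyte sum (121 CPM) and keeps those at 441 and 323 CPM. The removal thus favoured lower calls in this list, and their number is no separate support. None of the 33 families was at 0 in all LA and MA libraries, and 7 stayed under 1 CPM, among them CD4, CD8 alpha and myeloperoxidase. These sums stand beside the falls of integrin alpha-M and the immune copies, and their part in those results was not tested.

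Erythrocyte and adipocyte sums also lay above LA in every MA library. Erythrocyte markers summed to 653 to 781 CPM in LA and 847 to 1018 CPM in MA, with 5 of 7 tested families positive and hemoglobin beta overlapping at 297, 382 and 344 CPM in the LA libraries and 521, 370.2 and 337 CPM in the MA libraries. Adipocyte markers summed to 27 to 34.6 and 35.9 to 57.7 CPM, but of their 6 families only adiponectin and adipocyte fatty acid-binding protein were tested, CIDEA was at 0, and perilipin-1 stayed under 1 CPM in all LA and MA libraries. Their part in the lipid genes above was not tested. Summed levels of endothelium (72.9 to 113 in LA, 79.6 to 106 in MA), smooth muscle (185 to 328 and 166 to 271), epidermis (167 to 349 and 203 to 349) and bone and cartilage (51.3 to 86 and 63.9 to 122) overlapped between the diets. They had 7 of 11, 3 of 7, 8 of 19 and 4 of 6 tested families positive, and osteocalcin and 3 keratins were at 0. Liver markers summed to 1.89 to 21.4 CPM in LA, mostly complement C3, and 2.21 to 4.08 CPM in MA, with 1 of 2 tested families positive, 11 of 13 families under 1 CPM and alpha-2-HS-glycoprotein at 0. Of the smooth muscle markers, myosin-11 had 2331 counts in LA and 1135 in MA, transgelin 1448 counts in LA and 974 in MA and calponin-1 52 counts in LA and 200 in MA, and their part in the fall of caldesmon was not tested. Without LA library 1 and HA library 2, 2 smooth muscle families, 1 endothelial and 1 liver family passed as lower and 1 adipocyte family as higher, and none of the erythrocyte, epidermis or bone and cartilage lists did.

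**Figure D5:**
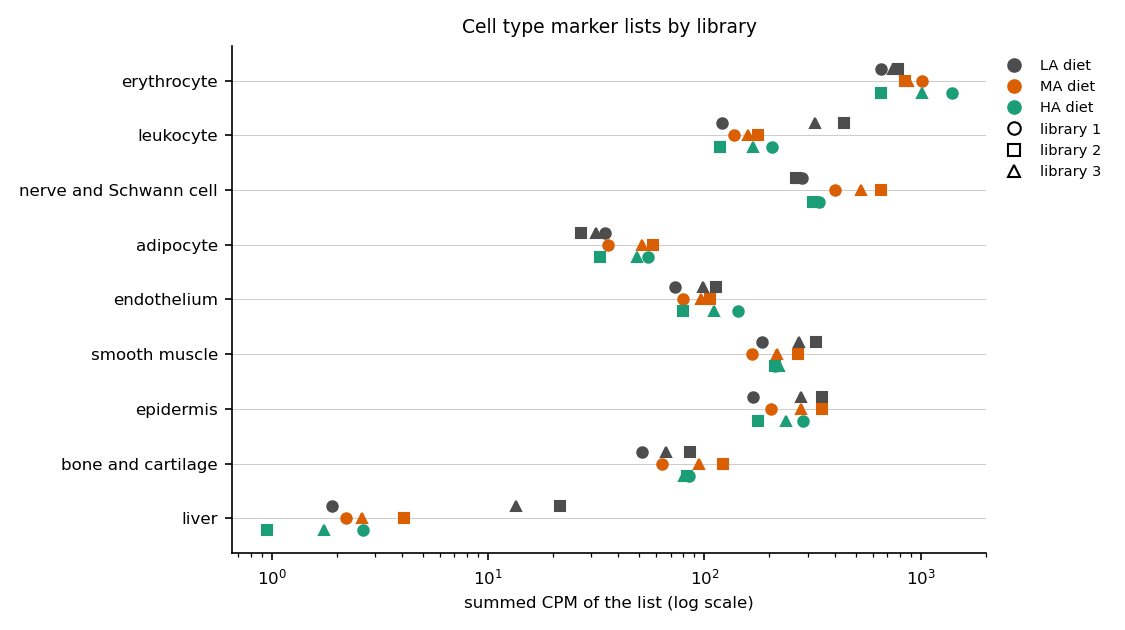
Summed CPM of each cell type marker list in each library (log axis), with colour for the diet and shape for the library number. Nerve and Schwann cell markers lie at 401 to 655 CPM in MA and 265 to 282 CPM in LA, and leukocyte markers in LA spread from 121 CPM in library 1 to 441 CPM in library 2.

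Of the 20 copies, 11 also set MA apart from HA, the diet with more Met and the same Lys. In the direct contrast of MA with HA, 13 of 23946 copies (0.0543%) and 11 of 12187 families (0.0903%) passed, and those 11 copies and 5 of the 9 families that passed against LA were among them. The fast myosin copy LOC113094704 had a log2 fold change 6.40 of MA against HA, adjusted p = 0.027, the parvalbumin-7 copy LOC113039862 a log2 fold change 4.80 of MA against HA, adjusted p = 0.0061 and sarcolipin a log2 fold change 1.98 of MA against HA, adjusted p = 0.018. The count of copies in this contrast was 75 without MA library 1, 35 without LA library 1, 3 without LA library 3 or MA library 3, 4 without MA library 2, 6 without HA library 1 and 0 without HA library 3 (1684 at an unadjusted p under 0.05), and DESeq2 gave 296. The count of families was 32 without MA library 1, 20 and 18 without LA library 1 or 2, 1 without HA library 1 and 0 without LA library 3 (1147 at an unadjusted p under 0.05), MA library 2 (1109), MA library 3 (808) or HA library 3 (849), while DESeq2 gave 144. MA against LA and HA against LA share the LA libraries: in HA against LA the log2 fold change of sarcolipin was -0.61 and that of the fast myosin copy -0.30.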

How the data were processed

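Paired-end reads of poly(A)-enriched muscle RNA were turned by the authors into 1 table of 76298 goldfish genes (identifiers and positions of assembly ASM336829v1). The deposited read counts are whole numbers per gene and library, with no normalization, and totals were 13962770 to 17177610 per library. The FPKM values, which the authors deposited beside the counts, followed from them (largest relative deviation 3.6e-14) and were not tested. The aligner, counting mode and strand setting were not given in the sources used here, nor was the treatment of reads with several placements. DESeq2 is the only tool in the submitters' processing notes, without a version.

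Counts of genes with the same protein name were summed into families (48262 genes in 15351 families; genes without an informative name stayed single), and 98.9 to 99.1% of counts lay in named genes. Copies and families were each fitted on all 9 libraries (3 per diet) with edgeR 4.0.16 in R 4.3.3. The steps were filterByExpr, TMM scaling and the quasi-likelihood test (6 residual degrees of freedom, edgeR's default prior count). Benjamini-Hochberg adjustment ran over all 23946 copies or 12187 families, with a threshold of 0.05. A prior count of 2 was used only for the residual correlations between libraries. The fit was run on simulated counts with all libraries drawn independently. That run cannot show how the likeness between libraries affects the p-values. Adjusted p-values in the text are from this fit unless another tool is named. Counting intervals are exact at 95%, and bounds against 0 counts use 3 counts over the group.

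Alternatives were RLE size factors, other filters on low counts, DESeq2 1.42.0, a replicate block, the compared diets alone, each library left out, libraries 1 and 2 alone, no LA library 1 and HA library 2, and sums by KEGG orthology number. Replicate numbers were not treated as pairs. Named features were those past the threshold, the families of highest CPM and smallest p in each gene list, their main copies, and the genes of the study's primer list. Members and lists were chosen with earlier results of these data known, so no list is independent support for its direction. Gene symbols were not changed, and 69688 genes were found in the RefSeq table of the assembly. No sequence is shown. Of the features past the threshold, 1 copy and its family are not reported here and enter only the counts.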

Additional observations from a re-analysis of the deposited data

Results flagged for a closer look

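The 20 copies and 9 families that passed in MA against LA were tested again in MA against HA, and 11 copies and 5 families also differed there at an adjusted p under 0.05 (edgeR quasi-likelihood test), which is what drew attention to them. Among muscle proteins, the log2 fold change of MA against HA was 6.40 for the fast myosin heavy chain copy LOC113094704, -1.74 for the fast myosin copy LOC113091543, 4.80 for the parvalbumin-7 copy LOC113039862, 2.52 for the kyphoscoliosis peptidase copy LOC113112850 and 1.98 for the sarcolipin family. Among signalling genes it was 1.40 for the fosB copy LOC113118461, 1.70 for the regulator of G-protein signalling 3 copy LOC113084745, 2.80 for the prostaglandin G/H synthase 2 copy LOC113045805, 2.53 for that family and 1.27 for the plasminogen activator inhibitor 1 family. The features lower in MA than in HA were the caldesmon family at -2.60, the cytochrome b-c1 subunit 8 copy LOC113075395 at -3.09, the GTPase IMAP family member 8 copy LOC113054740 at -7.41, the class I histocompatibility copy LOC113079565 at -7.49 and the uncharacterized LOC113109525 at -4.59. Of these, LOC113054740, LOC113079565 and LOC113109525 had 0 to 4 counts over the 3 MA libraries, so their fitted values depend on the prior count and are no bound. The MA libraries enter both contrasts, so the tests are not independent. The other 9 copies and 4 families did not pass in MA against HA.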

How the results depend on the processing

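No call of MA against LA reversed under an alternative in which its feature was tested. The full separation of MA from LA libraries in each called feature had largely fixed this in advance. RLE size factors left the 20 copies and 9 families as they were, but the number of calls moved widely. Without a filter on low counts 542 copies and 246 families passed in MA against LA and 321 and 129 in MA against HA. DESeq2 gave 440, 286, 296 and 144 in the same order. Without LA library 1 and HA library 2 these were 542, 442, 75 and 74. With libraries 1 and 2 of each diet alone all 4 were 0 in edgeR, with 527, 293, 431 and 216 at an unadjusted p under 0.05. Leaving out each library in turn gave 0 to 293 copies and 0 to 241 families in MA against LA, and 0 to 75 copies and 0 to 32 families in MA against HA. A fit to the compared diets alone gave 8 copies in MA against LA, 4 of them among the 20, and 21 families in MA against HA. Sums by KEGG orthology number gave 13 families in MA against LA and 4 in MA against HA, and of the 9 families only the uncharacterized LOC113109525 and LOC113041935 could be followed there, both still called. With the replicate block 4 copies, 3 of them among the 20, and 0 families passed in MA against LA (1134 families at an unadjusted p under 0.05) and 0 copies (1879) and 0 families (1007) in MA against HA. The numbers were not used as pairing, since libraries of the same number had residual correlations of -0.60 to 0.27. Of 431 list medians recomputed under the alternatives, 375 stayed within 1 SD of the library values and 49, in 16 of 27 lists, changed sign. The cause of these changes was not tested. For features with 0 to 4 counts in a group, the depth allowed only a bound or a wide counting interval. The alternatives for the cell type marker lists were added after the data were seen.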

Other observations

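Hox genes, the factors that set position along the body axis, were looked at beyond Hox-C9a, which passed as a family, and these families were chosen after their values were seen. Hox-C8a read 27.7, 28.3 and 23.5 CPM in the LA libraries, 55.9, 46.9 and 54.2 CPM in the MA libraries and 42.2, 33.9 and 39.8 CPM in the HA libraries. All MA lay above all LA, and the family did not pass (log2 fold change 0.98, SE 0.15, adjusted p = 0.069). Hox-A9b had 0 counts in the LA libraries and 34, 29 and 48 in the MA libraries, so it was at least 36.3-fold higher per total count, the bound taking 3 counts over the LA group (adjusted p = 0.093), while HA had 39, 5 and 26 counts. Hox-A10b had 1 count in LA and 145 in MA, a ratio of 142 with a 95% counting interval of 25.1 to 5658 (adjusted p = 0.13), and HA had 40, 0 and 35 counts. Hox-C10a had 4 and 138 counts, a ratio of 33.9 with an interval of 12.9 to 126 (adjusted p = 0.15). Hox-A9b, Hox-A10b and Hox-C10a thus had 0 to 4 counts in LA and were counted in every MA library, and HA library 2 was the lowest HA library in each.

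The direction was not shared by all Hox families, nor by all clusters at the same position. Of 26 Hox families tested, 9 had all MA above all LA and 3 all MA below. Over all 12187 tested families, 8.45% had all MA above all LA and 8.46% all MA below. Families with almost no counts in LA, such as Hox-A9b and Hox-A10b, passed the filter on low counts through MA and HA libraries. They could not have been counted as below LA, so the Hox counts are not balanced between the directions. Hox-A3a and Hox-C4 had all MA above all LA without passing (log2 fold change 1.12, SE 0.55, adjusted p = 0.47, and 1.57, SE 0.52, adjusted p = 0.26). Hox-A11a also had all MA above all LA (log2 fold change 1.65, SE 0.79, adjusted p = 0.44). Hox-A9a and Hox-D9a overlapped between the diets with positive log2 fold changes (0.88, SE 0.56, and 4.34, SE 1.41), neither passing. In the B cluster, Hox-B9a and Hox-B10a overlapped between the diets (log2 fold change 0.03, SE 0.28, for the first). Hox-B8b overlapped too (log2 fold change -2.04, SE 1.00), and Hox-B7a had all MA below all LA (log2 fold change -0.29, SE 0.18, adjusted p = 0.58). The place along the body from which each muscle sample was cut is stated in none of the sources used here, and its part in these values was not tested.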
